A study of Mus musculus with 32 samples.

Results

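CTCF knockdown in SSEA1-Thy1- cells was followed by ATAC-seq, which marks open chromatin by the places where the Tn5 transposase inserts adapters. SSEA1-Thy1- cells are reprogramming mouse fibroblasts that carry neither the fibroblast surface marker Thy1 nor the stem cell marker SSEA1. The members were 4 of the 32 samples of the series, chosen by their labels: the 2 samples with CTCF shRNA and the 2 with control shRNA (shLuci), 1 of each from day 6 and 1 from day 9 of reprogramming. The samples of a group share 1 deposited peak list, so the comparison is of 1 list with CTCF shRNA (with knockdown) and 1 list with control shRNA (with control). After overlapping intervals were merged, a peak was called gained when it lay only in the CTCF shRNA list, lost when it lay only in the control shRNA list, and shared when the lists overlapped there by at least 1 bp.

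Both groups share the remaining treatments that the labels give. They derive from mouse embryonic fibroblasts given Oct4, Sox2, Klf4 and Myc (OSKM) by virus, and the shRNAs were delivered to OG2 fibroblasts by retrovirus. The protocol describes separate retroviral factors and a doxycycline-inducible polycistronic vector with rtTA, both in stem cell medium with vitamin C, and the labels do not say which of them gave the sorted cells. The CTCF shRNA virus was concentrated, and no such step is given for the control virus. OG2 cells carry a GFP reporter under Pou5f1 regulatory sequence. Vector or reporter DNA and the native Pou5f1, Sox2, Klf4 and Myc loci cannot be told apart in peak lists. The other lists set beside these were the CTCF shRNA and control shRNA lists of day 0, Thy1+, SSEA1+ and GFP+ cells, 8 in all.

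CTCF is a zinc finger protein that binds a long GC-rich motif, stops the loop extrusion of cohesin and so marks the borders of chromatin domains. During reprogramming, fibroblast enhancers bound by AP-1, Runx and Tead factors close early, enhancers bound by the reprogramming factors open in steps, and the pluripotency genes open late. Thy1 is lost first, SSEA1 is gained next, and the Pou5f1 reporter comes on last, so SSEA1-Thy1- cells stand between the fibroblast and the committed state.

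The sequences below are the RefSeq promoter windows (build GRCm38.p6) of 6 genes whose window overlapped a peak in exactly 1 of the lists. Each window runs from 250 bases before to 50 bases after the transcription start. Lin28a and Hes5, which gained a peak, and Pou5f1 and Col6a1, which lost one, are shown because their promoter changes are described below. Rgs8, which gained a peak, and Ehbp1l1, which lost one, are shown as examples whose window holds the CTCF core. In both, the core lies outside the changed peak. Other called windows hold the core inside the changed peak, among them those of Slc29a1 and Asah2, which gained a peak, and Tex48, which lost one. Capitals mark matches to the CTCF core (CCA, any 2 bases, AG, any 2 bases, GGC), the AP-1 site (TGANTCA), the octamer (ATGCNAAT), the Klf site (GGGNGTGG) or the Tead site (GGAATG) on either strand.
Lin28a, chr4:134018767-134019066, strand -: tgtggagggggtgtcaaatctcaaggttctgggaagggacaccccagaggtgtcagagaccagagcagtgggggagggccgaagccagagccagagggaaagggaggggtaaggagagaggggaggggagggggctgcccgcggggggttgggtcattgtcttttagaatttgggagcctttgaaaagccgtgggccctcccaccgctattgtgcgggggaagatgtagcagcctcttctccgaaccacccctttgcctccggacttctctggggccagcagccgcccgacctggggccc
Hes5, chr4:154960673-154960972, strand +: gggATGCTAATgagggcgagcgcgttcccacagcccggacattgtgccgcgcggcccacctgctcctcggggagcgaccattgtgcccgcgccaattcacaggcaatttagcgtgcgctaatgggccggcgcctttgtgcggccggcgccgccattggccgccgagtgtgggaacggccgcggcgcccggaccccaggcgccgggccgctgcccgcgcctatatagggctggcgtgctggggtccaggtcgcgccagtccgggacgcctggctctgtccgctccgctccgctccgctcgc
Rgs8, chr1:153665423-153665722, strand +: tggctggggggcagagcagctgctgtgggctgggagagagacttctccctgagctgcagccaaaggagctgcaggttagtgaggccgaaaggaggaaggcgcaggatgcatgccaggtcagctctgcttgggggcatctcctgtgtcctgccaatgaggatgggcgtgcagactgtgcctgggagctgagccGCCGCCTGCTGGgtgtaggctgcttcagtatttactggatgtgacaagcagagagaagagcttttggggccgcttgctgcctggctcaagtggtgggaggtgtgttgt
Pou5f1, chr17:35505782-35506081, strand +: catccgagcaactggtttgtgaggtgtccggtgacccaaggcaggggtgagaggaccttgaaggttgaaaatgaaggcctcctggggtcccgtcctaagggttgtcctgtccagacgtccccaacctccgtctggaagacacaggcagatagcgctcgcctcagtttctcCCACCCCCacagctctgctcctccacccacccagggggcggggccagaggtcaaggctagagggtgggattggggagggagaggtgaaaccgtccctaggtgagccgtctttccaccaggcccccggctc
Col6a1, chr10:76725995-76726294, strand -: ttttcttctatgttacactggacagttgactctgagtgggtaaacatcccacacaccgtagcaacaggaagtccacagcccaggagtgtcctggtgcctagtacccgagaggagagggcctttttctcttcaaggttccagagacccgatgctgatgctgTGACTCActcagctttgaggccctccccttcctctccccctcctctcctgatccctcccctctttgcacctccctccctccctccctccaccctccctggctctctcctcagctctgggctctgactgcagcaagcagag
Ehbp1l1, chr19:5726230-5726529, strand -: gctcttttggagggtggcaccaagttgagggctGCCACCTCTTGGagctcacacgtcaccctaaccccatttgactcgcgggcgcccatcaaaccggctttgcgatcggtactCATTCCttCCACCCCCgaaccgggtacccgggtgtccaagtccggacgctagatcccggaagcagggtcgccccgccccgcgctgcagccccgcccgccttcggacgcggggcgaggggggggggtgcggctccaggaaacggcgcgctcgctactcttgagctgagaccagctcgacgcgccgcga
The octamer stands in the Hes5 window and the CTCF core in the Rgs8 and Ehbp1l1 windows. Each of these matches lies outside the peak that was gained or lost there. The Col6a1 window holds an AP-1 match and the Pou5f1 window a Klf match. The Ehbp1l1 window also holds a Klf and a Tead match, and none of the 5 letter strings stands in the Lin28a window.

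With CTCF shRNA the SSEA1-Thy1- cells had the longer list. It held 163857 peaks over 66.0 Mb, against 151240 peaks over 60.9 Mb with control shRNA, a difference of 0.12 in log2 peak number. Of these, 138025 peaks were shared. The cells gained 25832 peaks with CTCF shRNA, 15.8% of that list (95% exact Clopper-Pearson interval 15.6% to 15.9%). They lost 13215 peaks, 8.74% of the control list (8.60% to 8.88%). For each lost peak 1.95 were gained. These intervals cover counting error over peaks only. Each group has 1 list, so the differences carry neither a replicate check nor a p-value. The read depth behind the lists is unknown: a deeper library and more open sites cannot be told apart in the peak number. The intervals of the lists are 400 bp wide, and 140697 of them, 91.4% of the control intervals, had identical ends in both lists. A peak that is absent may have missed the authors' threshold by little. Shifted edges touched few calls: 3.17% of gained peaks had a control peak within 500 bp, and 3.20% of lost peaks had a CTCF shRNA peak that near.

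Nearly all differing peaks also lay in other lists. Of the gained peaks 95.0% lay in at least 1 of the 8 other lists, and of the lost peaks 98.3%. The lost peaks were mostly fibroblast sites: 67.1% were present in the day 0 list with knockdown and 66.8% in that with control. Gained peaks were present in 44.7% with knockdown and 44.3% with control, and shared peaks in 48.3% with knockdown and 48.1% with control. In Thy1+ cells, 80.6% of lost peaks were held with CTCF shRNA and 79.0% with control shRNA, and of gained peaks 75.1% with CTCF shRNA and 59.3% with control shRNA. In GFP+ cells 33.9% of lost peaks were held with knockdown and 28.8% with control, and of gained peaks 29.1% with knockdown and 24.6% with control. Shared peaks were held more often than either set in Thy1+, SSEA1+ and GFP+ lists.

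The SSEA1+ lists differed from each other in this measure. Lost peaks were present in 66.2% with CTCF shRNA and in 25.2% with control shRNA, and gained peaks in 63.5% with knockdown and 35.1% with control. The SSEA1+ list with CTCF shRNA stands apart from the other lists: of the sites open at day 0 and not in GFP+ control cells it held 55.6%, against 15.1% in the SSEA1+ control list. SSEA1-Thy1- cells held 31.3% of these sites with CTCF shRNA and 28.9% with control shRNA. For that reason the site classes below use the control lists alone.

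**Figure D1:**
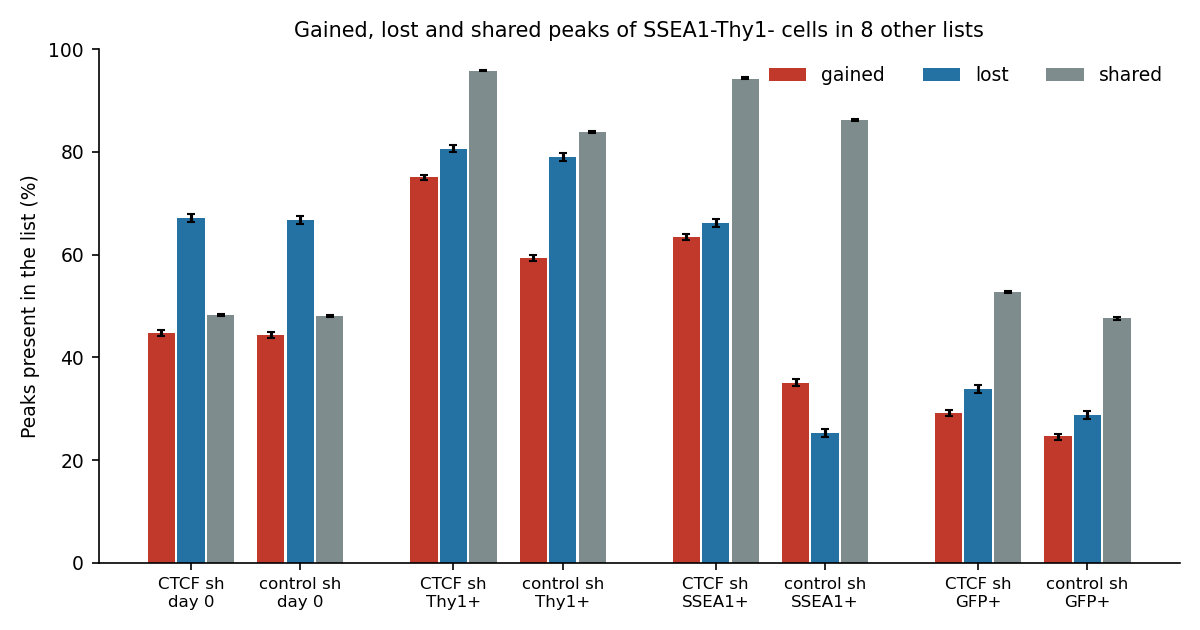
Percent of the gained, lost and shared peaks of SSEA1-Thy1- cells (y axis) that were present in each of 8 other peak lists (x axis, CTCF shRNA and control shRNA for each population). Bars are shares with exact 95% intervals as black lines. Lost peaks stand above gained peaks in both day 0 lists, at 67.1% and 66.8%, and below them only in the SSEA1+ control list, at 25.2% against 35.1%.

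The sites of all 10 lists, 267322 after merging, were put in classes by the other 4 control lists that held them, which neither SSEA1-Thy1- list enters. The sites that SSEA1+ control cells alone held showed the widest gap among the classes drawn in the plot of site classes, apart from 1 class of 595 sites (day 0 and SSEA1+, 67.4% with CTCF shRNA and 51.8% with control shRNA). Of these 17792 sites, SSEA1-Thy1- cells held 93.4% with CTCF shRNA and 79.7% with control shRNA, a difference of 13.7 percentage points, with 2857 sites gained and 419 lost. Sites of SSEA1+ and GFP+ cells were next: 74.2% of 8104 were held with CTCF shRNA, against 61.8% with control shRNA. Sites of GFP+ cells alone numbered 12823, of which 16.4% were held with knockdown and 9.95% with control. For each lost site, 6.82 were gained among sites of SSEA1+ cells alone and 2.72 among those of SSEA1+ and GFP+ cells. Among sites of GFP+ cells alone 2.16 were gained, beside 1.95 in the whole lists. Both lists score the same sites and each group has 1 list, so intervals over sites do not compare the groups.

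Sites of early cells were also held more often with CTCF shRNA, which had the longer list. For each lost peak of the whole lists 1.95 were gained. The same ratio was 1.25 for sites of day 0 and Thy1+ cells, 2.06 for Thy1+ alone and 2.54 for day 0 alone. Thy1+ sites absent from the other 3 lists were held in 46.3% with CTCF shRNA and 36.0% with control shRNA, of 10247. Sites shared by day 0 and Thy1+ cells, the most common class with 67615 sites, were held in 26.3% with CTCF shRNA and 24.0% with control shRNA. Of this class 7578 sites were gained and 6051 lost, together 20.2%, against 29.5% of the sites of Thy1+ alone. Sites of day 0 alone were nearly gone from both lists, at 3.74% of 20759 with knockdown and 1.91% with control. Of the 42794 sites open in all 4 lists, 97.3% were held with knockdown and 97.2% with control. Sites of day 0, Thy1+ and GFP+ cells that the SSEA1+ list lacked showed no net difference, at 53.3% of 5737 with knockdown and 53.4% with control, with 869 sites gained and 872 lost. A last class of 11518 sites lay in none of the 4 lists and was held in 54.6% with knockdown and 29.3% with control. It is made in part from these very lists, so its values are a description.

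**Figure D2:**
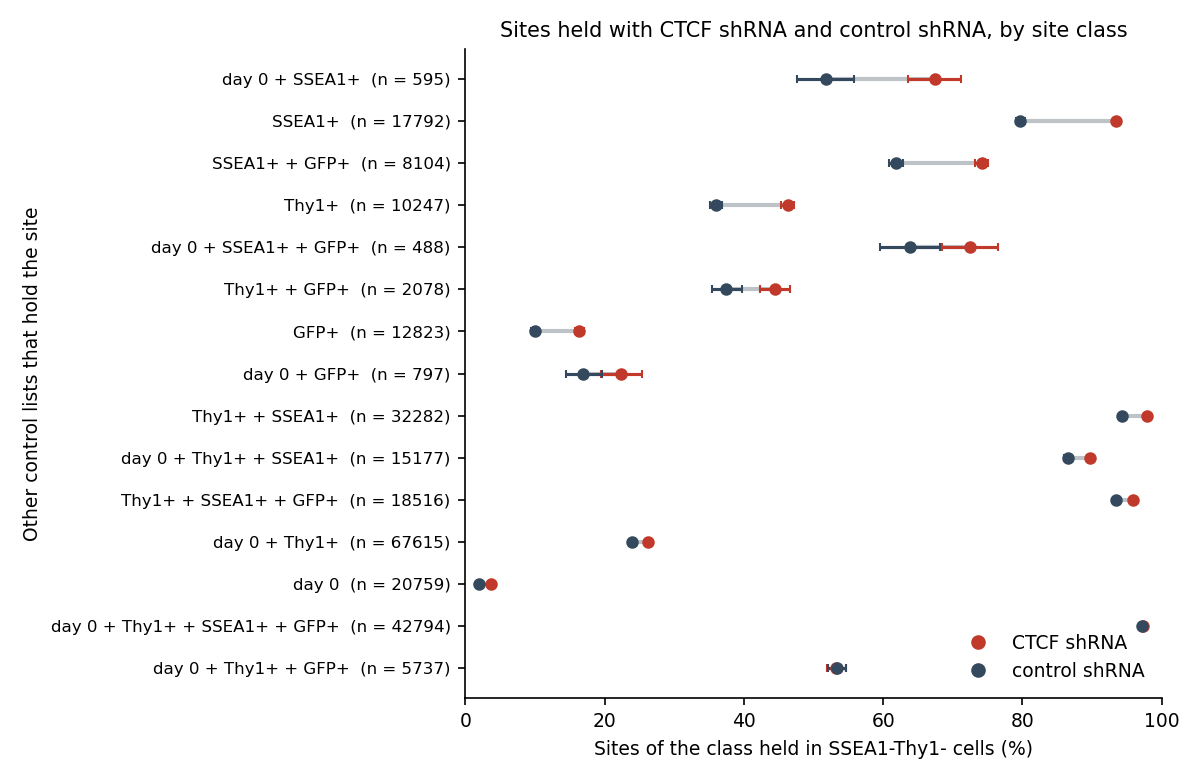
Percent of sites held in SSEA1-Thy1- cells (x axis) with CTCF shRNA (red) and control shRNA (dark blue), for 15 classes of sites named by the other control lists that hold them (y axis, ordered by the difference). Points are shares with exact 95% intervals. The red point lies right of the dark one in the SSEA1+ class, at 93.4% against 79.7%, and the points meet in the class open in all 4 lists, at 97.3% and 97.2%.

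The differing peaks lay away from gene ends. Of gained peaks 5.13% and of lost peaks 5.90% lay within 1 kb of either end of a protein-coding gene, against 12.8% of shared peaks. Gene bodies held 51.5% of gained, 54.5% of lost and 56.9% of shared peaks. The median distance to the nearest gene end was 30.3 kb for gained, 25.8 kb for lost and 21.5 kb for shared peaks. Gained peaks lay in gene-poorer surroundings, with a mean of 9.86 genes per Mb, against 11.4 for lost and 11.4 for shared peaks. With 0 to 4 genes in the surrounding 1 Mb, 18.1% of the CTCF shRNA peaks were gained, and with 40 or more genes 11.7%. The lost share had no such order and stayed between 7.76% and 9.43%. Inside genes under 20 kb long, 9.17% of CTCF shRNA peaks were gained, and inside the 226 genes of 500 kb or more, 17.6%.

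The X chromosome had the widest imbalance among chromosomes 1 to 19 and X. Of its CTCF shRNA peaks 18.0% were gained, against 14.1% to 17.5% on the autosomes. Of its control peaks 5.97% were lost, against 7.41% to 9.45% on the autosomes. It gained 3.46 peaks for each lost one, where the autosomes gained 1.61 to 2.41. X held 4343 peaks with CTCF shRNA and 3786 with control shRNA, a log2 difference of 0.20 beside 0.11 on the autosomes. The same log2 differences for X and autosomes were 0.01 and 0.01 at day 0, 0.17 and 0.13 in Thy1+ cells, 0.11 and 0.18 in GFP+ cells, and 0.41 and 0.44 between the SSEA1+ lists. The surplus in gene-poor surroundings also appeared between the other lists, day 0 apart. Log2 differences with 0 to 4 and with 20 or more genes in 1 Mb were 0.16 and 0.06 here, 0.00 and 0.01 at day 0, 0.18 and 0.09 in Thy1+ cells, 0.27 and 0.11 in GFP+ cells and 0.54 and 0.29 between the SSEA1+ lists.

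**Figure D3:**
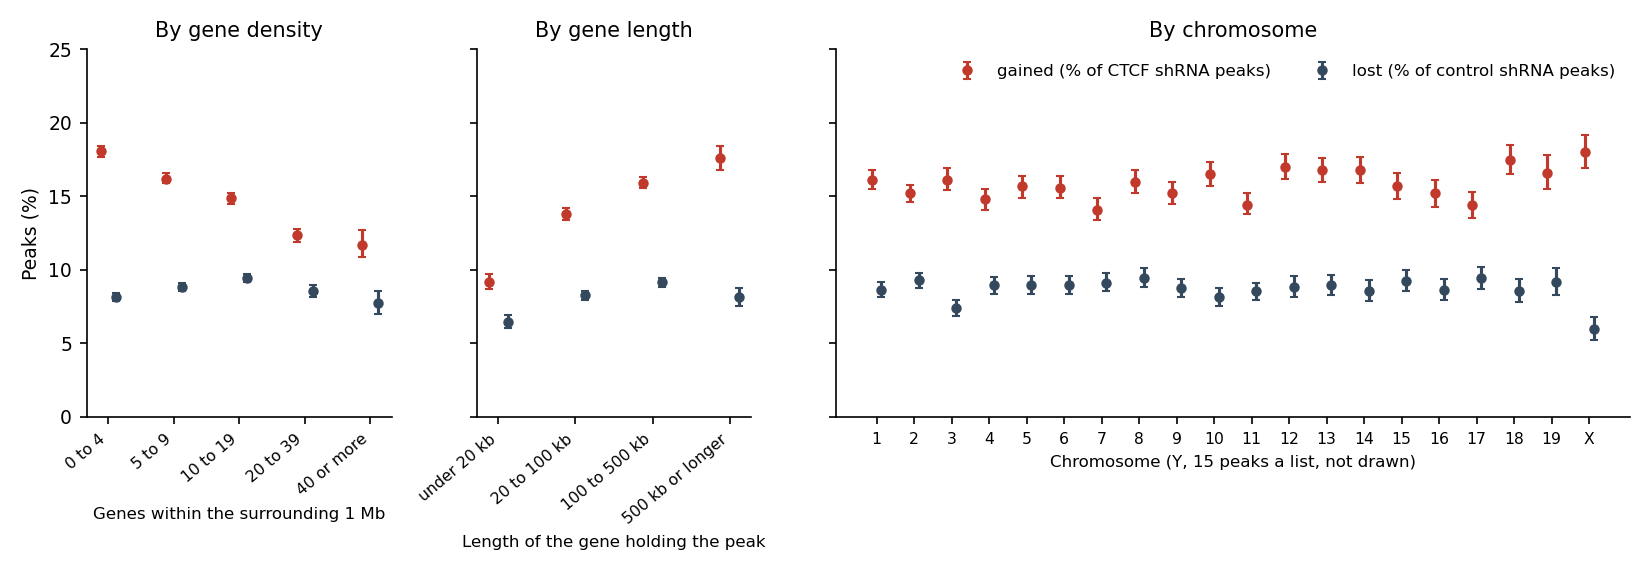
Gained peaks as a percent of CTCF shRNA peaks (red) and lost peaks as a percent of control shRNA peaks (dark blue), by number of genes in the surrounding 1 Mb, by length of the gene that holds the peak, and by chromosome, with exact 95% intervals. The gained share is 18.1% in the gene-poorest and 11.7% in the gene-richest surroundings. On X the gained share is 18.0% and the lost share 5.97%.

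Among 1 Mb bins, the most gained peaks were in chr3:104000001-105000000 and chr5:65000001-66000000, with 32 each. The first holds Wnt2b, a Wnt ligand, and lost 10 peaks. The second holds Pds5a, which regulates cohesin release, and Rfc1, a clamp loader of DNA replication, and lost 4. The most lost peaks, 27, were in chr8:120000001-121000000, which holds Gse1 and Irf8 and gained 20. The bin chr7:112000001-113000000 lost 25 and gained 11. It holds Tead1, a DNA-binding partner of Yap, with Parva and Mical2, which act in focal adhesions and actin turnover. The bin chr17:29000001-30000000, which holds Cdkn1a, lost 22 and gained 22.

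Over all 21883 protein-coding genes, a peak within 1 kb of either gene end was gained at 380 (1.74%) and lost at 243 (1.11%), present in both lists at 14795 and in neither at 6465. In the gene body and 50 kb on either side, 10680 genes (48.8%) had more peaks with CTCF shRNA and 4069 (18.6%) fewer. A net of 3 or more peaks was gained near 14.7% of genes and lost near 2.25%. The 26 gene lists held 601 genes, of which 17 gained a gene-end peak (2.83%) and 9 lost one (1.5%), set beside 1.74% and 1.11% of all genes. These calls depend on the window: within 2.5 kb of a gene end, 9 of the 26 kept their call, and Lin28a, Tdgf1, Hes5, Bmp4, Fap, Cdh5 and Col6a1 were among the others. In the stranded promoter window, Lin28a, Hes5, Bmp4 and Krt2 gained a peak, and Col6a1, Hoxd4 and Sox14 lost one. Relative log2 below is the log2 ratio of the peaks near a list's genes minus that of the whole lists. It ran from -0.12 to 0.06, with 0 standing for the whole. For all 26 lists its 95% counting interval includes 0. That interval treats the peaks of the CTCF shRNA and control shRNA lists as separate counts, although most of them are shared. It therefore cannot decide whether a gene list stands apart from the whole.

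Pluripotency genes had small differences. Near the 35 genes of this list there were 410 peaks with CTCF shRNA and 382 with control shRNA (66 gained, 38 lost, relative log2 -0.01). More peaks stood near 18 genes and fewer near 5, beside 48.8% with more and 18.6% with fewer among all genes. Lin28a, an RNA-binding protein that blocks let-7 maturation, gained a peak at chr4:134018445-134018844 just inside its promoter end. The same peak was present in Thy1+ cells with CTCF shRNA and in both GFP+ lists, and absent from the Thy1+ control, both SSEA1+ and both day 0 lists. Tdgf1, the Nodal co-receptor, also gained a gene-end peak. Esrrb, a nuclear receptor that sustains naive pluripotency, had 16 peaks with CTCF shRNA and 13 with control shRNA, and Nodal, a TGF-beta family ligand of the early embryo, had 18 with knockdown and 15 with control. The core factors beside Pou5f1 hardly differed. Nanog had 16 with knockdown and 14 with control, and Sox2 6 with knockdown and 6 with control.

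Pou5f1, which encodes Oct4, had 21 peaks with CTCF shRNA and 19 with control shRNA within 50 kb, 4 gained and 2 lost. The peak over its transcription start, chr17:35505901-35506300, was lost. That peak was present in both day 0 and both GFP+ lists and absent from both Thy1+ and both SSEA1+ lists. A peak near the other gene end, chr17:35510182-35510581, was gained, so the gene had a gene-end peak in both lists. Of the other vector factors, Klf4 (10 peaks with knockdown, 9 with control) and Myc (12 with knockdown, 11 with control) gained 1 peak each and lost none. Sox2 gained 1 peak and lost 1.

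Fibroblast genes differed in both directions. Near the 42 genes of this list there were 675 peaks with CTCF shRNA and 662 with control shRNA (89 gained, 76 lost, relative log2 -0.09, counting interval -0.24 to 0.07). More peaks stood near 19 genes and fewer near 16, beside 48.8% with more and 18.6% with fewer among all genes. Zeb2 and Snai1, both repressors of E-cadherin in the epithelial-mesenchymal transition, differed in opposite ways. Zeb2 had 34 peaks with CTCF shRNA and 26 with control shRNA, and Snai1 had 18 with knockdown and 23 with control. Snai1 did not show this in the other populations: it had 17 with knockdown and 17 with control at day 0, 25 with knockdown and 25 with control in Thy1+ cells, and 18 with knockdown and 18 with control in GFP+ cells. In SSEA1+ cells it had 20 with knockdown and 16 with control. Zeb2 also had more with CTCF shRNA in 3 of the other 4 populations, namely 31 peaks with knockdown and 28 with control at day 0, 40 with knockdown and 32 with control in Thy1+ cells, 36 with knockdown and 22 with control in SSEA1+ cells. In GFP+ cells it had 15 with knockdown and 15 with control. The whole list with CTCF shRNA was the longer one in each of these populations. Prrx1, a mesenchymal homeobox factor, had 24 peaks with knockdown and 20 with control, and Col3a1, a fibrillar collagen, 12 with knockdown and 8 with control. Col6a1, a chain of the microfibrillar collagen VI, lost its promoter peak at chr10:76725926-76726325, which all other lists held except the SSEA1+ control. Fap, a serine protease of activated fibroblasts, gained a gene-end peak.

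Of the matrix and adhesion families, the 44 collagens had 833 peaks with CTCF shRNA and 778 with control shRNA. Of the 44, 5 gained a gene-end peak, Col19a1, Col9a3, Col20a1, Col28a1 and Col6a4, beside 1.74% of all genes, and Col6a1 lost one. In the stranded promoter windows the direction was the other way: 0 collagen windows gained a peak and 3 lost one, those of Col6a1, Col18a1 and Col6a5. The 39 integrins and laminins had 777 with knockdown and 731 with control, with Lama2, the laminin chain of muscle basement membrane, at 43 with knockdown and 33 with control, and Lama3, an epithelial laminin chain, at 32 with knockdown and 24 with control. The 46 matrix proteases and their inhibitors had 639 with knockdown and 612 with control, and none changed at a gene end. Adamts1, a metalloprotease, had 13 with knockdown and 9 with control, and Timp2, an inhibitor, 22 with knockdown and 18 with control.

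Epithelial genes had 447 peaks with CTCF shRNA and 427 with control shRNA near 25 genes (relative log2 -0.05). Ocln, which encodes the tight junction protein occludin, had 22 peaks with knockdown and 18 with control. Cdh1, which encodes E-cadherin, had 24 with knockdown and 25 with control. Cldn6, a claudin of embryonic epithelia, lost a gene-end peak. Of 53 keratins, Krt222, Krt15 and Krt2 gained a gene-end peak and Krt28, Krt16 and Krt75 lost one. Among all genes 1.74% gained one and 1.11% lost one. Within 2.5 kb, Krt222 and Krt28 had a peak in both lists. In the stranded promoter window Krt2 also gained a peak, and Krt28 and Krt75 had none in either list. Near the 53 keratins there were 133 peaks with knockdown and 119 with control.

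Near 22 of the 23 listed genes of chromatin architecture there were 372 peaks with CTCF shRNA and 330 with control shRNA. Of these peaks 59 were gained and 17 lost. Relative log2 was 0.06 (counting interval -0.16 to 0.28), 0.12 with 20 kb on either side and 0.03 with 100 kb. More peaks stood near 15 genes and fewer near 3, beside 48.8% with more and 18.6% with fewer among all genes. A net of 3 or more was gained near 7, beside 14.7% of all genes. Stag1, a cohesin subunit, had 40 with CTCF shRNA and 29 with control shRNA, Nipbl, the cohesin loader, 26 with knockdown and 21 with control, and Hdac8, the deacetylase that recycles cohesin, 25 with knockdown and 19 with control. Ctcf itself had 16 with knockdown and 15 with control, with 1 gained peak and none lost. This shows its chromatin and not its transcript, so the knockdown could not be checked here. The 24 chromatin remodellers had 558 with knockdown and 513 with control (80 gained, 35 lost, relative log2 0.01, counting interval -0.17 to 0.18). A net of 3 or more was gained near 10 of them, beside 14.7% of all genes. Rsf1, the partner of Smarca5 in the RSF complex, had 28 with knockdown and 20 with control, Arid2, a subunit of PBAF, 30 with knockdown and 26 with control, and Smarca5 itself 8 with knockdown and 8 with control.

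Genes of the factors that bind fibroblast enhancers differed in both directions. AP-1 genes had 211 peaks with CTCF shRNA and 197 with control shRNA. Batf, an AP-1 partner of lymphoid cells, gained a gene-end peak and had 13 with knockdown and 8 with control, and Jun had 17 with knockdown and 14 with control, while Jund had 14 with knockdown and 17 with control. The 13 genes of the Tead and Hippo list had 272 with knockdown and 272 with control, with 31 gained and 31 lost (relative log2 -0.12, counting interval -0.36 to 0.13). A net of 3 or more was lost near 3 of them, beside 2.25% of all genes. Tead1 had 51 with CTCF shRNA and 55 with control shRNA, Lats2, the kinase that inactivates Yap, 31 with knockdown and 34 with control, and Amotl2, a Yap-binding junction protein, 16 with knockdown and 19 with control. Runx genes had 108 with knockdown and 103 with control, with Runx2, the osteoblast factor, at 38 with knockdown and 34 with control.

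TGF-beta genes, a pathway that opposes the mesenchymal-epithelial transition, had 634 peaks with CTCF shRNA and 601 with control shRNA. Bmp4, a ligand that favours that transition, gained a promoter peak at chr14:46390519-46390918, which the SSEA1+ control and both GFP+ lists held and the other 5 lists lacked. Ltbp1, which stores latent TGF-beta in the matrix, had 59 with knockdown and 53 with control. Acvr1b, a receptor of activin and Nodal, had 30 with knockdown and 26 with control. Smad6, the inhibitory Smad, had 24 with knockdown and 29 with control. Cell cycle arrest genes had 290 with knockdown and 278 with control, with Cdkn1a, the p53 target that encodes p21, at 17 with knockdown and 20 with control. Imprinted genes had 247 with knockdown and 235 with control near 19 of 23 listed genes, with Dlk1, a paternally expressed Notch-like ligand, at 11 with knockdown and 15 with control.

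Lists of other lineages had small differences as well. Neural genes had 183 peaks with CTCF shRNA and 170 with control shRNA, and Hes5, a Notch target, and Pax6, an eye and forebrain factor, gained a gene-end peak. At Pax6 the peak over a second promoter window was lost. The Hes5 peak was also in the Thy1+ list with CTCF shRNA and in both GFP+ lists. Endothelial genes had 235 with knockdown and 208 with control (relative log2 0.06), with Cdh5, the endothelial cadherin, at 21 with knockdown and 16 with control. It gained a peak at both gene ends. Haematopoietic genes had 187 with knockdown and 176 with control, and Csf1r, a macrophage receptor, lost a gene-end peak. Keratinocyte genes had 120 with knockdown and 110 with control, and endoderm and trophoblast genes 174 with knockdown and 165 with control, with none changed at a gene end. Housekeeping genes had 228 with knockdown and 223 with control, with Actb gaining a gene-end peak. Among developmental families, Klf genes had 307 with knockdown and 277 with control, Sox genes 318 with knockdown and 301 with control, forkhead genes 691 with knockdown and 668 with control, and Hox genes 156 with knockdown and 145 with control. Hoxd4, Sox14 and Foxi2 each lost a gene-end peak. Klf12, a repressor of the Klf family, had 51 with knockdown and 44 with control, and Sox6 66 with knockdown and 58 with control.

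Peak numbers near the genes of the sort gates differed little. Thy1 had 15 peaks with CTCF shRNA and 16 with control shRNA, with 3 gained and 4 lost. A lost peak, chr9:44048644-44049043, lay at a Thy1 gene end. Fut4, a fucosyltransferase that makes SSEA1, had 10 with knockdown and 9 with control, with 1 gained and none lost. Pou5f1 lost the peak over its transcription start, as described above. All of the gate genes had a peak at 1 gene end or the other in both lists. In the Thy1+ lists Thy1 had 21 with knockdown and 22 with control. Peak lists do not measure surface protein, so the sort itself could not be checked by these values.

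**Figure D4:**
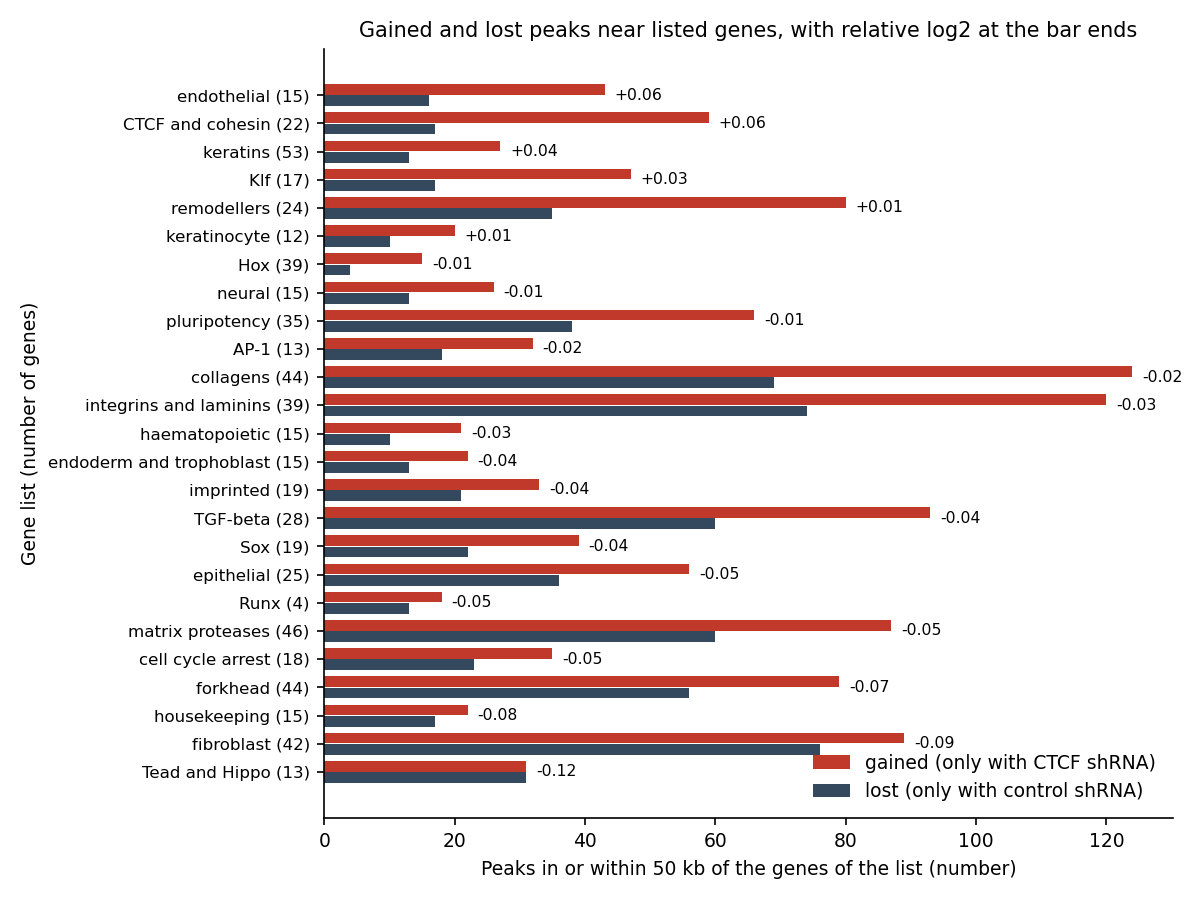
Number of gained (red) and lost (dark blue) peaks in or within 50 kb of the genes of 25 lists (y axis, number of genes in brackets), ordered by relative log2, printed at the bar ends. Chromatin architecture (CTCF and cohesin) has 59 gained and 17 lost peaks, and the Tead and Hippo list 31 of each.

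The largest net gains over all genes were in or near long genes. Magi2, a synaptic scaffold of 1485 kb, had 101 peaks with CTCF shRNA and 80 with control shRNA, and Ptprd, a receptor phosphatase of 2271 kb, 92 with knockdown and 72 with control. Peak counts add up over length, so a net count favours long genes. Dlg2, another synaptic scaffold, had 110 with knockdown and 91 with control, and Macrod2 127 with knockdown and 109 with control. Pard3b, a polarity protein, had 60 with knockdown and 42 with control, Ptprk, a receptor phosphatase of cell contacts, 47 with knockdown and 30 with control, and Cacna2d3, a calcium channel subunit, 60 with knockdown and 44 with control. Camk1d had 50 with knockdown and 35 with control, Hdac9, a class IIa deacetylase, 61 with knockdown and 46 with control, and Lsamp, a neural adhesion protein, 104 with knockdown and 89 with control. Ptprk lost no peak while it gained 17, and it had more with CTCF shRNA in all 5 populations, namely 37 peaks with knockdown and 34 with control at day 0, 64 with knockdown and 46 with control in Thy1+ cells, 45 with knockdown and 35 with control in SSEA1+ cells, and 20 with knockdown and 15 with control in GFP+ cells. The whole lists were also longer with knockdown in all 5. They held 154612 peaks with knockdown and 153962 with control at day 0, and 213386 with knockdown and 194446 with control in Thy1+ cells. In SSEA1+ cells they held 183640 with knockdown and 135749 with control, and in GFP+ cells 103467 with knockdown and 91337 with control.

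The largest net losses were smaller and lay in or near shorter genes. Rptor, the mTORC1 subunit raptor, had 54 peaks with CTCF shRNA and 62 with control shRNA. Selplg, the P-selectin ligand, was the shortest of them at 14.7 kb. In the gene and 50 kb on either side Selplg had 18 with knockdown and 26 with control, with 8 lost and none gained. Ttll11 had 30 with knockdown and 38 with control, Zfp469 34 with knockdown and 42 with control, Gse1 70 with knockdown and 77 with control, Iqsec1 27 with knockdown and 34 with control, and Ralgps1 37 with knockdown and 44 with control. Vangl1, a planar polarity protein, had 22 with knockdown and 29 with control, Acaca, the first enzyme of fatty acid synthesis, 33 with knockdown and 39 with control, and Angpt4, an angiopoietin, 16 with knockdown and 22 with control. The other populations, in each of which the whole list was longer with CTCF shRNA, did not show 1 pattern for these genes. Gse1 also had fewer with knockdown in 3 of them, namely 75 with knockdown and 78 with control at day 0, 90 with knockdown and 93 with control in Thy1+ cells, and 69 with knockdown and 71 with control in GFP+ cells. Iqsec1 had fewer with knockdown at day 0 and in Thy1+ cells. Rptor had more with CTCF shRNA in the other 4 populations, namely 41 peaks with knockdown and 38 with control at day 0, 70 with knockdown and 66 with control in Thy1+ cells, 64 with knockdown and 46 with control in SSEA1+ cells, and 44 with knockdown and 35 with control in GFP+ cells.

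**Figure D5:**
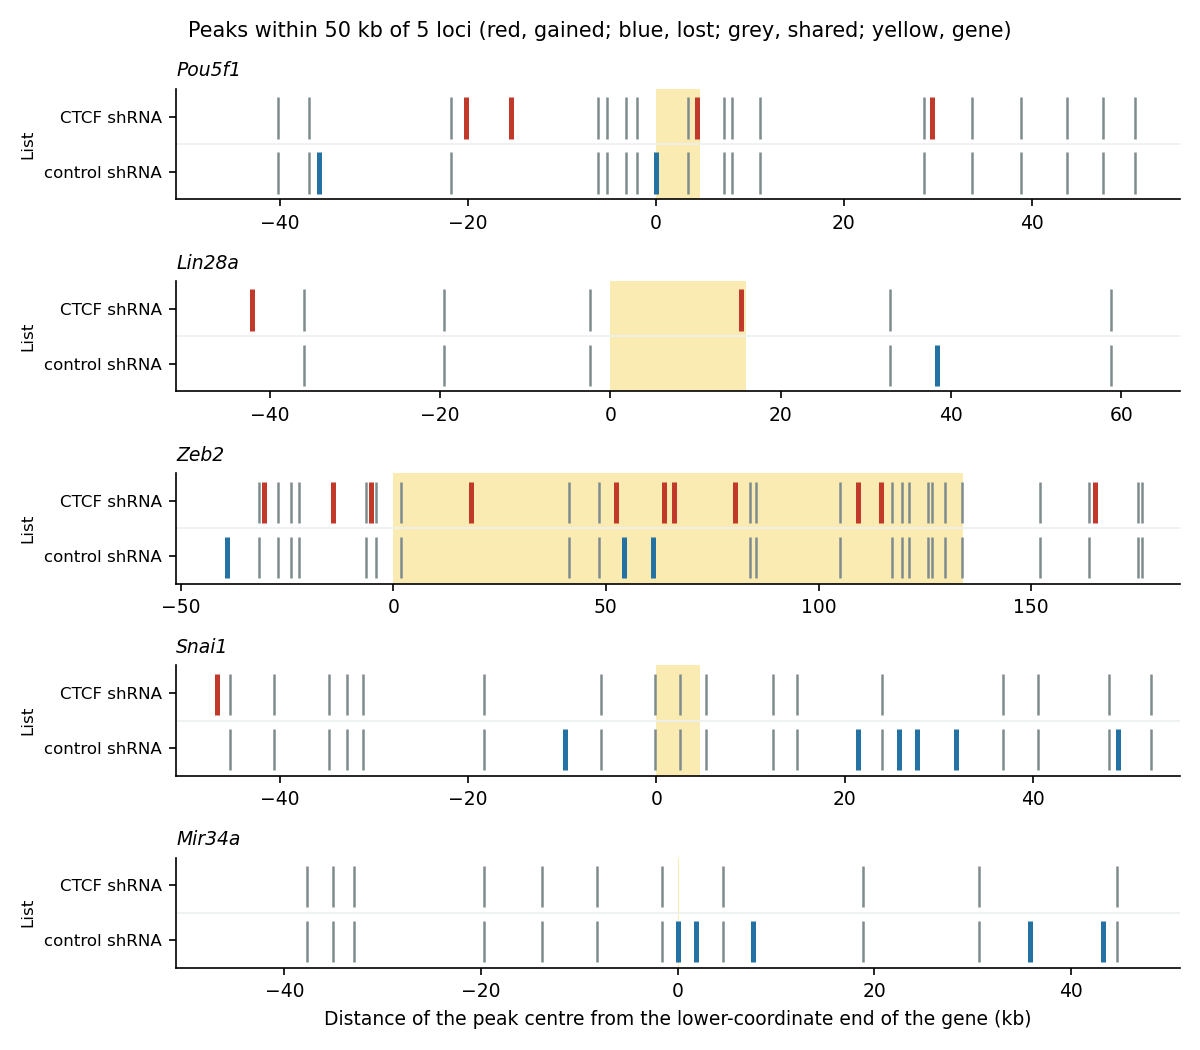
Peak centres in SSEA1-Thy1- cells with CTCF shRNA (upper row of each panel) and control shRNA (lower row) by distance in kb from the lower-coordinate end of 5 loci. Red marks are gained, blue lost and grey shared peaks, and yellow is the gene. Zeb2 has 11 gained and 3 lost peaks, Snai1 1 and 6, Pou5f1 4 and 2, Lin28a 2 and 1, and Mir34a 0 and 5.

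Promoter windows were taken from RefSeq for 30804 transcription starts, after windows that overlap another of the same gene were left out. A peak was gained at 410 windows (1.33%) and lost at 267 (0.867%). Gained windows were 52.5% GC and lost windows 54.4%, against 61.4% in windows open in both lists and 47.6% in windows open in neither. The AP-1 site stood in 14.6% of gained windows (11.4% to 18.4%) and in 16.5% of lost windows (12.2% to 21.5%), against 5.69% of windows open in both, 9.35% open in neither and 7.91% of all. Both changed classes thus held the AP-1 letters more often than the shared windows. The CTCF core stood in 2.93% of gained windows (1.52% to 5.06%) and 1.12% of lost windows (0.232% to 3.25%). Windows open in both lists held it in 3.30% (3.01% to 3.62%), those open in neither in 1.79% and all windows in 2.45%. The Klf site stood in 23.7% of gained and 18.4% of lost windows, against 23.8% of windows open in both and 17.6% of all. The octamer stood in 3.41% of gained and 1.12% of lost windows, against 2.71% of windows open in both and 3.15% of all. The Tead site stood in 18.8% of gained and 14.6% of lost windows, against 11.8% of windows open in both and 14.7% of all. The intervals of gained and lost windows overlapped for all 5 letter strings, and base composition differs between the classes. The letter strings were searched on both strands and in promoter windows only. A match in a window may lie outside the peak that overlaps the window.

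Further window changes were chosen after their values were seen. Gained windows included those of Eras, an embryonic stem cell Ras, of Dppa1, an early-embryo gene, and of T, the mesoderm factor Brachyury. The T window peak was held by both GFP+ lists and by no other of the 8. The Dppa1 peak had the opposite pattern and was held by both day 0 and both Thy1+ lists and by no SSEA1+ or GFP+ list. The Eras peak was held by all lists but those of day 0. Runx3 gained 2 separate peaks at 2 windows, and Hgf, the ligand of Met, gained 1 peak that overlapped 2 windows. Lost windows included Krt8, a simple epithelial keratin whose peak the SSEA1+ and GFP+ lists held and the day 0 and Thy1+ lists lacked, and Eng, a TGF-beta co-receptor.

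Of 1005 miRNA hairpins, 27 gained a peak within 1 kb (2.69%) and 27 lost one (2.69%). Mature sequences from RefSeq (GRCm38.p6) are given for the groups described, 5′ to 3′, with the seed (bases 2 to 8) in capitals, to show which of these arms share it.
mmu-miR-34a-5p: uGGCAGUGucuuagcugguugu
mmu-miR-34b-5p: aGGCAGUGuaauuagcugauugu
mmu-miR-290a-3p: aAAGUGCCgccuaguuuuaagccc
mmu-miR-294-3p: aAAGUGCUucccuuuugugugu
mmu-miR-302b-3p: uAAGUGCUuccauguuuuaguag
mmu-miR-183-5p: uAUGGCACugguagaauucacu
mmu-miR-96-5p: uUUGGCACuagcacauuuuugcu
The 34a and 34b arms share the seed GGCAGUG, and the 294 and 302b arms share AAGUGCU. The other arms shown have seeds of their own and belong to these groups by genomic cluster. The groups were chosen after values were seen.

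Mir34a, a p53 target that slows reprogramming in mouse cells, lost the peak over its hairpin, chr4:150068262-150068661. Within 10 kb it had 3 peaks with CTCF shRNA and 6 with control shRNA, and within 50 kb 11 with knockdown and 16 with control, with no gained peak. No gap this wide stood in the other populations: the 10 kb counts were 4 with knockdown and 4 with control at day 0, 6 with knockdown and 6 with control in Thy1+ cells, 6 with knockdown and 5 with control in SSEA1+ cells, and 3 with knockdown and 5 with control in GFP+ cells. Mir34b and Mir34c had 2 peaks with knockdown and 3 with control within 10 kb. Mir290a, first of the embryonic stem cell cluster, lost a peak at chr7:3217577-3217976, upstream of the hairpin, and had 3 peaks with knockdown and 4 with control within 10 kb. Mir294 and Mir295 had a peak within 1 kb in both lists. The miR-302 cluster, of the related seed, had a peak near it in both lists, with 2 within 10 kb in each. Mir183 and Mir96, of a cluster expressed in embryonic stem cells and sensory cells, lost the same neighbouring peak at chr6:30168331-30168730, with 7 within 10 kb in each list. Mir200a, Mir200b and Mir429, which target Zeb1 and Zeb2, had no peak within 1 kb in either list. In the imprinted cluster near Dlk1, Mir431 and Mir433 lost the same peak, chr12:109590591-109590990, and had 2 with knockdown and 5 with control within 10 kb, while Mir370 gained one and had 7 with knockdown and 5 with control.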

How the data were processed

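ATAC-seq was run by the authors on nuclei of lysed cells, per the labels' protocols. The submitters' processing notes name MACS2, Bowtie2, Picard, SAMtools, cutadapt, Trim Galore and FastQC, and the builds GRCm38 and mm10. Not given in the sources used here are tool versions, the threshold for peaks, whether reads were shifted for the transposase, and how samples were combined. The deposited lists hold positions of 400 bp and a score that is 0 throughout, so presence was the only measure, and no depth is known. Replicate samples could not be compared.

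Lists were merged and intersected with Python 3.11.15, numpy 2.4.6, pandas 2.3.3 and scipy 1.17.1. Genes came from RefSeq (GRCm38.p6, no strand given), hence either gene end with 1 kb on each side; promoter windows with strand served as the alternative. The merging and overlap steps recovered all 200 lost and 200 gained peaks planted in the control shRNA list of SSEA1-Thy1- cells. The planted gained peaks stood more than 1 kb from any control peak, so gains nearer to a control peak were not tested. The members and lists were chosen with earlier results of these data known. Named genes were, per list, those with a gene-end peak in 1 of the lists and up to 3 with the largest net difference of at least 3 peaks; over all genes, the 10 largest net gains and losses; 11 fixed genes; and promoters holding the CTCF core. The labels' numbers name days, not separate animals. Lists of day 10 and day 12 cells were not used. Some items are not reported here.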

Additional observations from a re-analysis of the deposited data

Results flagged for a closer look

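The direction of the difference between CTCF shRNA and control shRNA changed between populations for 2 site classes. Of sites open at day 0 and not in GFP+ control cells, SSEA1-Thy1- cells held 2.39 percentage points more with CTCF shRNA (31.3% against 28.9% with control shRNA), while Thy1+ cells differed by -3.90 points (75.6% with CTCF shRNA, 79.5% with control shRNA). Of sites open in GFP+ control cells and not at day 0, SSEA1-Thy1- cells held 5.80 points more (64.5% against 58.7%), while SSEA1+ cells differed by -3.11 points (61.0% with CTCF shRNA, 64.1% with control shRNA). The SSEA1+ values rest on the list that stands apart. Each value comes from 1 list a group, and neither difference between populations was tested.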

How the results depend on the processing

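Of the alternative values computed, 3 moved beyond 1.5 times or beyond their counting interval and 125 did not. Many of them had little room to move. With 91.4% of control intervals identical in both lists, asking for overlap of at least 50% of the shorter peak gave 13217 lost peaks, against 13215. Gene list values were judged by counting intervals that treat the lists as separate counts. Relative log2 of the gene lists took the opposite sign in 4 of 78 alternative values, in lists at 0.01 or less in size (pluripotency 0.03, remodellers -0.02 and keratinocyte -0.02 with 20 kb, neural 0.02 with 100 kb), and AP-1 genes went to -0.10 with 20 kb. The order of the lists therefore depends on the window. By RefSeq promoter window in place of either gene end, 174 genes gained a peak, against 380, and 123 lost one, against 243; the window is narrower and 17491 of the genes have one. With 2.5 kb in place of 1 kb, an alternative chosen after seeing the data, 48 miRNA hairpins gained a peak, against 27. Of the 26 list genes that differed at a gene end within 1 kb, 9 kept their call within 2.5 kb, Batf, Pax6, Col9a3, Col20a1, Krt2, Krt15, Krt16, Krt75 and Foxi2. No paired analysis was possible because each group has 1 list, and no replicate could be left out for the same reason. Unknown read depth limits the peak number and every share of gained and lost peaks. No genome was used, so motifs of distal peaks were not analysed here.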
